A study of Mus musculus with 38 samples.

Results

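The intermediate cells with BMP4 are the 7125 cells that carry the deposited annotation "Intermediate state" in the scRNA-seq sample of JGES reprogramming with BMP4 at day 7. They were chosen by that annotation alone and made up 62.9% of the 11335 cells of the sample (exact 95% confidence interval 62.0 to 63.7%). The other cells of the sample were 1453 endothelial cells, 385 placenta-like cells and 2372 cells annotated ParE, a label taken as primitive endoderm cell-like cells, although it can also be read as parietal endoderm. The annotation had been made by the authors on the expression of the same cells. Differences between it and the other annotations are therefore given as a description, with no test.

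JGES reprogramming starts from mouse fibroblasts transduced with retroviruses for *Jdp2*, *Glis1*, *Esrrb* and *Sall4*. Both cultures of the scRNA-seq samples were transduced with the 4 factors, and delivery to single cells was not measured. They were kept for 7 days in iCD3 medium that held TV, mLIF and bFGF, Vitamin C, and the compounds CHIR99021, SGC0946, LSD1-HCL and Y27632. The BMP4+ sample had 10 ng/ml BMP4 in addition, and the BMP4− sample, with 6211 intermediate cells among 8685 (71.5%, 70.6 to 72.5%), had none. Each condition was 1 library, so no value has a replicate, and intervals cover counting error only. Bulk RNA-seq libraries of JGES cells were used as further measures, 1 per condition. They covered day 0 and days 1, 3, 5 and 7 with and without BMP4. ATAC-seq peaks of mouse embryonic fibroblasts (MEFs) were used as well. The fibroblasts were MEFs from E13.5 embryos of either sex, bred from OG2 and 129S4/SvJaeJ mice. Day 0 follows the delivery of the factors, and *Sall4*, *Jdp2* and *Esrrb* were already at 650.4, 375 and 240.4 FPKM in that library.

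Fibroblasts on the way to another fate lose their own program over days, and many of them stop in states that belong neither to the start nor to the end. BMP4 is a secreted morphogen of the TGF-beta family. It binds receptor kinases that activate SMAD transcription factors, which switch on the *Id* genes and their own inhibitors *Smad6* and *Smad7*. It is known for driving bone formation, for a role in the kidney and for steering early embryonic cells toward extra-embryonic fates. WNT ligands act on neighbouring cells through beta-catenin or other routes and are used in the same tissues.

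The intermediate cells held a median of 19594 UMIs and 4183 genes per cell, with a range of 7009 to 100374 UMIs. The other 3 annotations of the sample had medians of 21763 to 28906 UMIs, and the BMP4− intermediate cells had a median of 11892 UMIs and 2656 genes. Levels are given as CPM, the UMIs of a gene relative to all UMIs of the same cells, scaled to a common total. A pooled sum weights a cell by its UMIs. Counting error was small at this depth. The exact Poisson interval of *Slpi*, at 371 CPM from 59820 UMIs, ran from 369 to 374 CPM. Mitochondrial UMIs were 3.17% of the total in intermediate cells against 1.99 to 2.15% in the other 3 annotations. In all, 1019 intermediate cells and 62 other cells of the sample had over 5% mitochondrial UMIs. Without them the share of intermediate cells was 59.5%. Of the neighbours of intermediate cells in expression space, 98.2% were intermediate cells themselves. Only 2 cell barcodes occurred in both libraries, in intermediate cells each time.

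The 5 genes that mark the annotation are named first, with the sequence before the start of 2 of them and of 4 further genes that stood out in these cells. *Wnt10a*, a WNT ligand of skin and teeth, lies at chr1:74791516-74804179 on the plus strand. *Dlx3*, a homeobox transcription factor of placenta, hair and bone, lies at chr11:95120119-95125296 on the plus strand. *Pcolce*, the enhancer of the protease that trims procollagens, lies at chr5:137605103-137613784 on the minus strand. *Lrp1*, a large endocytic receptor, lies at chr10:127538161-127621148 on the minus strand. *Sema3c*, a secreted semaphorin that guides cell migration, lies at chr5:17574281-17730268 on the plus strand. Positions are GENCODE vM21 genes on mm10, which is GRCm38.

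The 250 bases before the RefSeq start (GRCm38.p6) are printed 5′ to 3′ on the strand of the gene for the markers *Pcolce* and *Sema3c*, the calcium binding protein gene *S100a4*, the bone sialoprotein gene *Ibsp*, the hair keratin gene *Krt71* and the skin gene *Prr9*. *S100a4* and *Ibsp* were among the genes highest over the other annotations, and *Krt71* and *Prr9* among those highest over the BMP4− sample. Capitals mark matches to TGANTCA (the AP-1 site), TGACGTCA (the CRE), GGCGCC (a GC-rich element bound by BMP SMADs) and TATAAA, each searched on both strands. The motifs do not overlap in these sequences. RefSeq and GENCODE can place the start of a gene differently, and the RefSeq starts of *Pcolce*, *Sema3c*, *Ibsp* and *Krt71* lie inside the GENCODE genes.
Pcolce, chr5:137611405-137611654, minus strand: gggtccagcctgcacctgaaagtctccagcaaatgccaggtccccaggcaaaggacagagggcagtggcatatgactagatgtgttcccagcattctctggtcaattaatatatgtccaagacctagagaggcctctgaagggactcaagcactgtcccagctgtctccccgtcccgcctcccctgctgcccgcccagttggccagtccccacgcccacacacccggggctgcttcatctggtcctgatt
Sema3c, chr5:17574566-17574815, plus strand: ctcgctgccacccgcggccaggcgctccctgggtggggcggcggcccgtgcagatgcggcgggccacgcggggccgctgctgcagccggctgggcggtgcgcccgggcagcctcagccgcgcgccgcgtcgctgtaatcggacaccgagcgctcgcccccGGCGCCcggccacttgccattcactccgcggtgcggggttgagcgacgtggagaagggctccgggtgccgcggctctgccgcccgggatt
S100a4, chr3:90603520-90603769, plus strand: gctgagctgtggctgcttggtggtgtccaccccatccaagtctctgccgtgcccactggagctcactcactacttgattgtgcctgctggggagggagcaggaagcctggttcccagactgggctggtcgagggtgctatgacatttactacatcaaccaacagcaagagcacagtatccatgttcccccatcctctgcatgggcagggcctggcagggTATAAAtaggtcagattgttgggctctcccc
Ibsp, chr5:104299037-104299286, plus strand: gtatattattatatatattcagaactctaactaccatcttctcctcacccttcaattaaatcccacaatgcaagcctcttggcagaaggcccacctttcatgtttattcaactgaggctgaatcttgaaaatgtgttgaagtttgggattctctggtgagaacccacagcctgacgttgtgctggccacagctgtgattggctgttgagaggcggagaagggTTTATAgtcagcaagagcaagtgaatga
Krt71, chr15:101743098-101743347, minus strand: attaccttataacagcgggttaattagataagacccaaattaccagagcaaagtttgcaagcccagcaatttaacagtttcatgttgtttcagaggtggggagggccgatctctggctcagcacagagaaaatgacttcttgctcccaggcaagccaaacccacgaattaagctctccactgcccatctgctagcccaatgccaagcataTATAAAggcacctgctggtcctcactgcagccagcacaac
Prr9, chr3:92123948-92124197, minus strand: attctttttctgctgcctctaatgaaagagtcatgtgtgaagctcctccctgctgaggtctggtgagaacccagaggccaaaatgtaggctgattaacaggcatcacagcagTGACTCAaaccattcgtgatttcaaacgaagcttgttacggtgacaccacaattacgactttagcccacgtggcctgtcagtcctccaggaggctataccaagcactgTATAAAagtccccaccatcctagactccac

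A TATAAA match began 31 bases before the start of *S100a4*, 28 before *Ibsp*, 40 before *Krt71* and 30 before *Prr9*. *Prr9* also held TGANTCA at 138 bases and *Sema3c* held GGCGCC at 90 bases before the start, and *Pcolce* held none of the 4 motifs. Of 578 genes at least 2-fold higher in intermediate cells than in each of the other 3 annotations, 428 had a promoter in the table. TATAAA was found in 11.9% of these promoters (51 of 428), in 6.02% of 7306 promoters of all genes tested and in 4.52% of 310 promoters of the genes lower than in each of the others. For TGANTCA the 3 shares were 4.67, 3.76 and 2.90%, for TGACGTCA 1.402, 3.02 and 2.26%, and for GGCGCC 15.2, 18.1 and 23.2%. These are matches of letters, and neither binding nor use of a site was measured.

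All 5 markers were higher in the intermediate cells than in each other annotation. *Wnt10a* was at 200.4 CPM (198 to 203) in intermediate cells, 13.0 in endothelial, 20.3 in placenta-like and 18.9 CPM in ParE cells. *Sema3c* was at 312 CPM (309 to 315) against 23.0, 33.4 and 27.6 CPM in the same order. *Pcolce* was at 359.6 CPM (357 to 363) against 42.3, 46.8 and 43.7 CPM. *Dlx3* was at 131 CPM against 12.2, 26.0 and 13.6 CPM, while for *Lrp1* the level was 87.8 CPM in intermediate cells and 16.1, 11.5 and 9.62 CPM elsewhere. The log2 ratios of CPM with 1 CPM added lay between 2.29 (*Dlx3* against placenta-like) and 3.85 (*Wnt10a* against endothelial). The genes mark the annotation, so this is a description of it.

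Within the intermediate cells the markers were not uniform. With each cell thinned to 4000 UMIs, 58.2% of the cells held a UMI of *Pcolce*, 48.2% of *Sema3c*, 40.7% of *Wnt10a*, 35.5% of *Dlx3* and 26.0% of *Lrp1*. At full depth the shares were 85.6, 73.2, 67.6, 70.8 and 64.5%. In endothelial cells, which are not marked by these genes, the thinned shares were 11.7% for *Pcolce*, 5.57% for *Sema3c* and 3.23% for *Wnt10a*. Summed over the 5 genes, a thinned intermediate cell held a median of 4 UMIs (10th to 90th percentile 1 to 9), and 9.43% of the cells held none.

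The question of the comparison within the sample is what separates the intermediate cells from the cells that had taken a named fate. A gene was compared when it reached 10 CPM on either side and was called when it differed by at least 2-fold. Against endothelial cells, 1159 of 8572 genes (13.5%) were higher in intermediate cells and 885 (10.3%) lower. Against placenta-like cells 988 of 8655 genes (11.4%) were higher and 1176 (13.6%) lower, and against ParE cells 1142 of 8666 (13.2%) were higher and 1123 (13%) lower. The median log2 ratio of all genes was −0.05, −0.24 and −0.18. Centred on these medians, 1237 genes were higher and 808 lower against endothelial, 1273 and 749 against placenta-like, and 1337 and 829 against ParE cells. Over all 3 comparisons, 578 of 9208 genes (6.28%) were higher than in each other annotation and 402 (4.37%) lower.

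The genes highest over all 3 were led by *Slpi*, *S100a9*, *Grem1* and *Col1a1*. *Slpi*, a secreted inhibitor of serine proteases, was at 371 CPM against 10.1, 8.42 and 15.8 CPM in endothelial, placenta-like and ParE cells. *S100a9*, a subunit of calprotectin in myeloid and stressed skin cells, was at 247 CPM against 5.18, 15.4 and 7.34 CPM. *Iapp*, the islet amyloid peptide hormone, was at 1700 CPM against 46.7, 44.3 and 177 CPM. *Col1a1*, a chain of type I collagen, was at 281 CPM against 18.5, 19.9 and 21.8 CPM. *Ibsp* was at 39.9 CPM against 0.773, 0.337 and 2.54 CPM, and *Grem1*, a BMP antagonist, at 21.8 CPM against 0.544, 0.505 and 0.570 CPM.

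The other genes of the 20 highest were *Ccl8*, *Postn*, *Pcp4l1*, *S100a4*, *Dcpp2*, *Dcpp3*, *Car3*, *Krt42*, *Col3a1*, *Nppa*, *Col5a3*, *Tm4sf1*, *Wnt10a* and *BC018473*. *S100a4* stood at 416 CPM, *Pcp4l1* at 321 CPM and *Postn*, the matrix protein periostin, at 276 CPM. *Dcpp2* and *Dcpp3*, secreted proteins known from salivary glands, stood at 1445 and 1829 CPM. They belong to a family of near-identical genes, so the split of reads among them is uncertain. The 20 genes were found in the other annotations at a median of 5.83% of their intermediate level in endothelial cells, 6.40% in placenta-like and 7.55% in ParE cells, with a range of 0.844 to 10.4%. Over all 578 genes the medians were 16.7, 18.8 and 15%. Free RNA in droplets would give all annotations a like low level, and its part in these values was not tested.

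**Figure D1:**
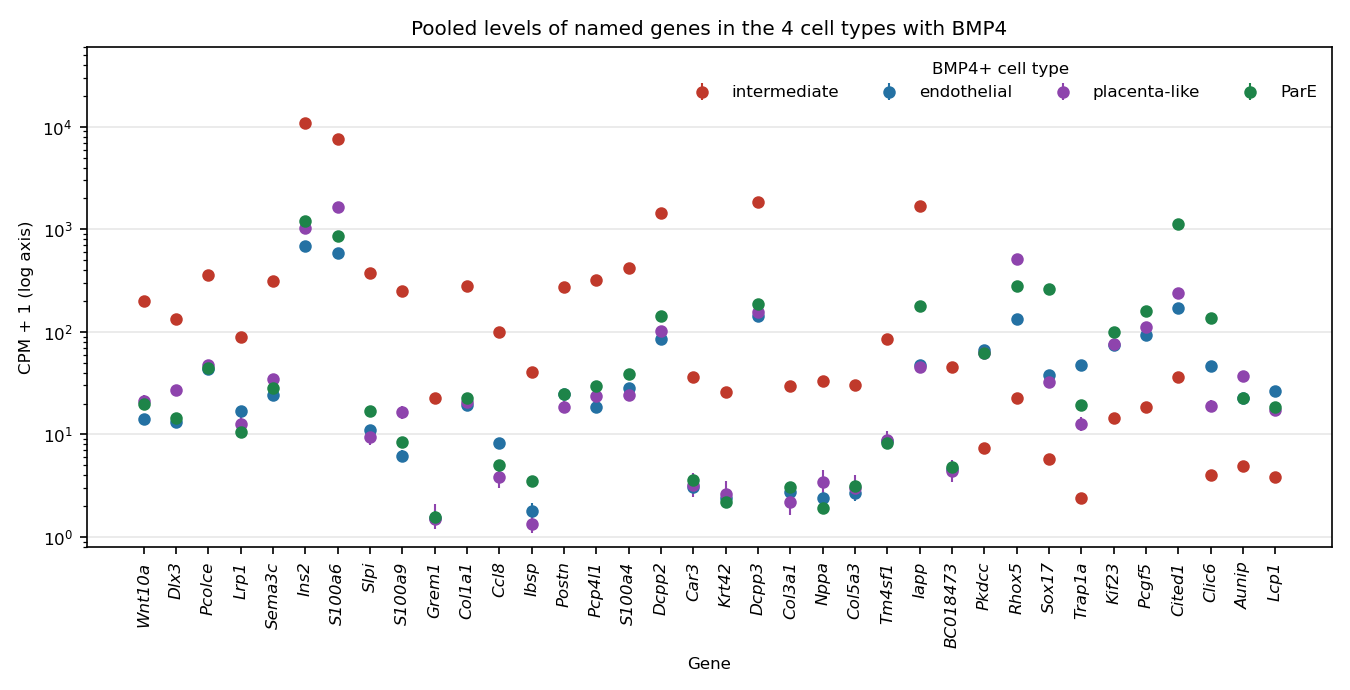
Pooled level of each named gene (CPM + 1, log axis) in the 4 annotations of the BMP4+ sample; bars are exact Poisson 95% intervals, mostly smaller than the points. The first genes are the 5 markers, *Ins2* and *S100a6*, then the 20 highest and the 10 lowest genes. In the high genes the intermediate cells lie above the other 3 annotations, which are close together for *Pcolce* (42.3 to 46.8 CPM) and further apart for *Iapp* (44.3 to 177 CPM).

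The most abundant protein-coding genes other than those with ribosomal or mitochondrial symbols included *Ins2* and *S100a6*. *Ins2*, 1 of the 2 insulin genes of the mouse, led with 10863 CPM in intermediate cells against 692 CPM in endothelial, 1026 in placenta-like and 1208 CPM in ParE cells. *S100a6*, a calcium binding protein of proliferating and wounded cells, was at 7565 CPM against 587, 1668 and 853 CPM. The remaining 8 genes of the 10 most abundant (*Tpt1*, *Eef1a1*, *Ftl1*, *Fth1*, *Fau*, *Tmsb4x*, *Hsp90ab1* and *Eef1b2*) are widely expressed genes, *Fau* among them encoding a ribosomal protein fusion, and *Eef1a1*, an elongation factor, was at 7735 CPM in intermediate and 7619 CPM in endothelial cells.

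The genes lowest under all 3 were led by *Pkdcc*, *Rhox5* and *Sox17*. *Pkdcc*, a secreted kinase, was at 6.38 CPM (5.99 to 6.78) in intermediate cells against 65.2, 60.8 and 61.2 CPM in endothelial, placenta-like and ParE cells. *Rhox5*, an X-linked homeobox gene of germ and extra-embryonic cells, was at 21.8 CPM against 132, 513 and 282 CPM. *Sox17*, a transcription factor of endoderm and arteries, was at 4.69 CPM against 37.3, 31.2 and 263 CPM. *Cited1*, a transcriptional coactivator, was at 35.4 CPM against 170, 237 and 1123 CPM. *Kif23*, a motor of cell division, was at 13.5 CPM against 74.1, 74.6 and 98.8 CPM. *Pcgf5*, *Trap1a*, *Clic6*, *Aunip* and *Lcp1* completed the 10.

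Matrix genes were higher in the intermediate cells as a group. Of the 22 genes of the fibrillar matrix list, 17 reached the minimum in any annotation and 13 of them were higher than in each other annotation, where 6.28% of all genes were. The median log2 ratio of the list was 2.90 against endothelial, 2.56 against placenta-like and 2.84 against ParE cells. *Col1a2* was at 331 CPM against 28.3, 17.5 and 42.1 CPM. The exceptions included *Sparc*, a matrix glycoprotein, with 1823 CPM in intermediate and 2239 CPM in ParE cells, and *Fn1*, fibronectin, with 466 CPM in intermediate and 1342 CPM in endothelial cells. *Pcolce* is a member of this list as well as a marker.

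The mesenchymal transcription factors were partly higher. Of 10 that reached the minimum, 5 were higher than in each other annotation, where 6.28% of all genes were, with medians of 1.48, 1.72 and 2.4 against endothelial, placenta-like and ParE cells. *Prrx2*, a homeobox gene of limb mesenchyme, was at 141 CPM against 23.0, 55.6 and 18.3 CPM, and *Twist1*, a regulator of mesenchyme, at 96.5 CPM against 22.6, 6.99 and 20.2 CPM. *Zeb2* was at 54.1 CPM in intermediate and 67.6 CPM in endothelial cells. Of 9 contractile genes, 1 was higher than in each other annotation, a share near that of all genes. It was *Acta2*, the actin of smooth muscle and myofibroblasts, with 42.7 CPM against 1.60, 7.41 and 4.75 CPM.

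Some genes of bone and kidney were higher. Of 20 bone and cartilage genes 8 reached the minimum, and 4 of these were higher than in each other annotation, beside 6.28% of all genes. A gene could reach the minimum through the intermediate cells alone, which favours a call of higher. *Spp1*, osteopontin, was at 544 CPM against 55.3, 32.5 and 84.0 CPM, and *Sox9*, a regulator of cartilage, at 46.2 CPM against 3.66, 10.6 and 6.28 CPM. *Msx2*, a homeobox target of BMP signalling, was higher in placenta-like cells (132 CPM) than in intermediate cells (58.2 CPM). Of 16 kidney development genes 4 reached the minimum, and 3 of these were higher than in each other annotation, beside the same 6.28%. *Wnt4*, the ligand that starts nephron formation, was at 459 CPM (456 to 462) against 50.04, 173 and 64.6 CPM. *Six2*, a factor of nephron progenitors, was at 25.1 CPM against 4.55, 2.69 and 3.52 CPM. These 2 themes are ones the study named for the same cells, so the lists are not independent evidence of their direction. The bone list held 7 and the kidney list 6 genes under 1 CPM in intermediate cells.

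Among WNT genes, several ligands were higher, while 2 well-known targets were within 2-fold of the other annotations. *Wnt6*, a ligand of epithelia, was at 379 CPM against 32.0, 137 and 40.9 CPM, and *Wnt5a*, a ligand of mesenchyme that acts without beta-catenin, at 96.2 CPM against 10.2, 24.3 and 15.4 CPM. The beta-catenin targets *Axin2* and *Nkd1* stood at 71.7 and 72.9 CPM, beside 40.8 to 77.6 CPM of *Axin2* and 83.1 to 132 CPM of *Nkd1* in the others. *Dkk1*, a WNT inhibitor, was at 237 CPM against 68.2, 346 and 131 CPM. In the list as a whole, 4 of 14 genes were higher than in each other annotation, the 3 ligands *Wnt10a*, *Wnt6* and *Wnt5a* and the secreted factor *Dkk3*, and 0 lower, where 6.28% of all genes were higher and 4.37% lower.

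In the BMP pathway itself, 3 of 10 ligands, receptors and binding proteins and 3 of 10 targets were higher than in each other annotation, beside 6.28% of all genes. One of the first group, *Bmp6*, was lower. The ligand gene *Bmp4* was at 71.5 CPM in intermediate cells against 10.8, 13.8 and 9.26 CPM, and *Bmp1*, a procollagen protease, at 121 CPM against 32.4, 19.5 and 18.3 CPM. The receptor genes *Bmpr1a* and *Bmpr2* were at 44.7 and 56.1 CPM and within 2-fold of every other annotation. *Bambi*, a pseudoreceptor induced by the pathway, was at 385 CPM against 150.3, 98.1 and 64.6 CPM. *Id1* was at 629 CPM against 391.9, 355 and 469 CPM, and *Id3* at 789 CPM against 543, 419 and 458 CPM. *Smad7* was at 134 CPM, beside 141 CPM in placenta-like cells. Of 12 semaphorins and plexins, 5 were higher than in each other annotation, among them the receptor *Plxna2* with 60.7 CPM against 7.64, 25.1 and 7.39 CPM. The marker *Sema3c* belongs to that list.

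Cell cycle genes were lower in the intermediate cells. Of the 15 S phase genes 13, and of the 16 G2/M genes 15, were lower than in each other annotation, where 4.37% of all genes were, and none was higher. *Top2a*, a topoisomerase of dividing cells, was at 130.3 CPM (129 to 132) against 362, 295 and 367 CPM. *Pcna*, the replication clamp, was at 76.9 CPM against 172, 129 and 187 CPM. The list medians of log2 ratios were −1.49, −1.33 and −1.55 for S phase and −1.47, −1.81 and −1.76 for G2/M. *Cdkn1a*, the p21 inhibitor of cell cycle kinases, was at 954 CPM (949 to 958) against 259, 227 and 157 CPM, and 2 of 13 genes of the p53 and arrest list were higher than in each other annotation, where 6.28% of all genes were. *Bax*, a p53 target of cell death, was at 347 CPM, beside 343 to 621 CPM in the other 3.

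**Figure D2:**
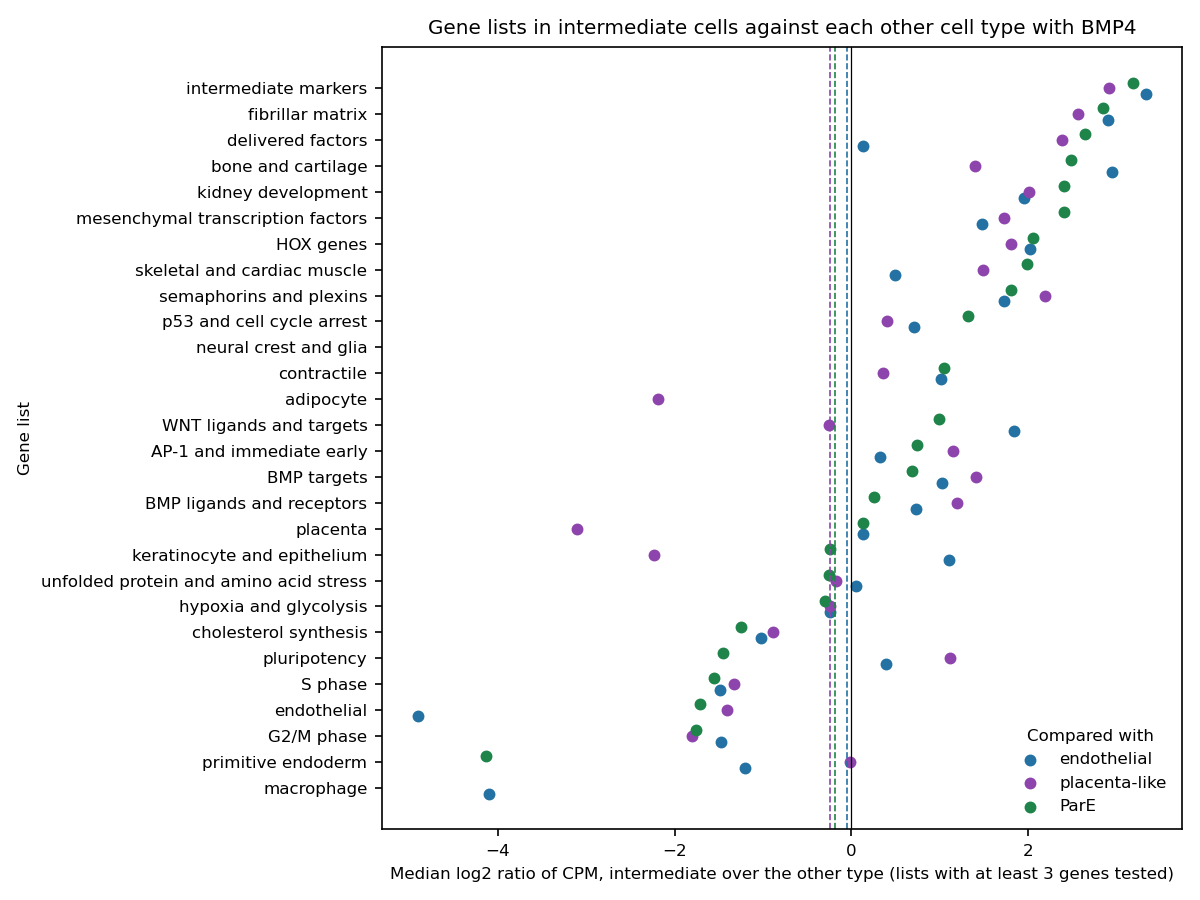
Median log2 ratio of CPM (intermediate over each other annotation of the BMP4+ sample) for each gene list with at least 3 genes tested; dashed lines are the medians of all genes tested, −0.05, −0.24 and −0.18. Matrix, bone and kidney lists lie on the right and the cell cycle and cholesterol lists on the left for all 3 comparisons.

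Markers of the other annotations were mostly lower than in the annotation they mark, but not at 0. Summed over the 12 genes of the endothelial list, intermediate cells held 82.3 CPM, endothelial cells 1509, placenta-like cells 151 and ParE cells 400 CPM. *Kdr*, a VEGF receptor, was at 3.58 CPM in intermediate and 203 CPM in endothelial cells, and *Cdh5*, the endothelial cadherin, at 3.04 and 179 CPM. The 13 primitive endoderm genes summed to 592 CPM in intermediate and 4444 CPM in ParE cells, and the sum in placenta-like cells was 589.6 CPM. *Dab2*, an endocytic adaptor of this lineage, was at 12.4 CPM in intermediate and 433 CPM in ParE cells. *Srgn*, a member of the same list, did not differ in this way, with 263 and 256 CPM. The 14 placenta genes summed to 239 CPM in intermediate and 1712 CPM in placenta-like cells. None of these 39 genes had 0 UMIs in the pooled intermediate cells. Among the 18 keratinocyte and epithelium genes, 13 reached the minimum. Of these, 1 was higher than in each other annotation and 0 lower, beside 6.28 and 4.37% of all genes. Against placenta-like cells 7 of 13 were lower and 1 higher (median log2 ratio −2.23), where 13.6 and 11.4% of all genes were. *Krt5*, a keratin of basal epithelium, was at 54.4 CPM against 3.09, 8.67 and 3.60 CPM. *Krt18*, a keratin of simple epithelia, was at 348 CPM in intermediate and 1641 CPM in placenta-like cells.

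Of the delivered factors, *Jdp2* was at 117.5 CPM in intermediate cells, 68.0 in endothelial, 17.1 in placenta-like and 15.7 CPM in ParE cells. *Esrrb* was at 23.9 CPM against 21.7, 3.79 and 2.995 CPM. *Sall4* went the other way, with 25.7 CPM against 32.8, 48.0 and 149 CPM. UMIs of the delivered and of the resident genes cannot be told apart in these counts. Of 7 pluripotency genes 1 was higher than in each other annotation and 1 lower, where 6.28% and 4.37% of all genes were, and the list's median log2 ratio to the highest of the 3 was −1.68, beside −0.48 for all genes. The higher gene was *Sox2*, at 12.4 CPM against 1.37, 1.26 and 1.37 CPM. *Dppa5a*, which marks embryonic stem cells, was at 4.48 CPM.

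The spread between intermediate cells differed widely from gene to gene. By variance over mean in thinned cells, the first genes were *Slpi*, *Ins2*, *Iapp*, *Dcpp1*, *Dcpp3*, *Clu*, *Dcpp2*, *Malat1*, *S100a9*, *Ibsp*, *S100a6*, *Ccl5*, *Pyy*, *Ccl8* and *Ttr*. *Slpi* had a variance over mean of 201, a mean of 1.33 UMIs per thinned cell and a maximum of 675. The richest 1% of the cells held 77.8% of its UMIs. For *Iapp* the richest 10% held 91.6% of the UMIs, for *Dcpp1* 82.0%, for *Clu*, a secreted chaperone, 67.6%, for *Ins2* 53.2% and for *S100a6* 44.5%. The elongation factor *Eef1a1* is given for scale, with 16.1% in the richest 10%.

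**Figure D3:**
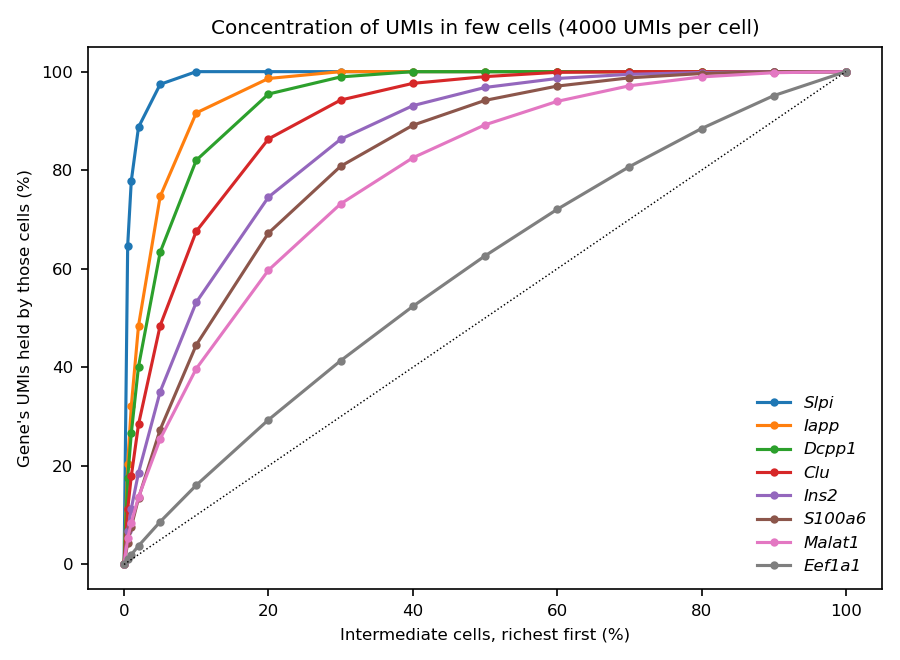
Share of a gene's UMIs (%) held by the richest share of the 7125 intermediate cells (%), each cell thinned to 4000 UMIs; the dotted line is an even spread. *Slpi* lies at the top, with 77.8% of its UMIs in 1% of the cells, and *Eef1a1* lies nearest the dotted line.

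The cells rich in these transcripts overlapped to different degrees. At least 10 thinned UMIs of *Ins2* were held by 3734 cells (52.4%, 51.2 to 53.6%), against 5.02% of endothelial, 6.75% of placenta-like, 6.49% of ParE and 1.34% of BMP4− intermediate cells. For *Iapp* 757 cells (10.6%, 9.92 to 11.4%) held as many, against 0.413, 0.260 and 0.927% of the other annotations and 0.0483% of BMP4− intermediate cells. A single thinned UMI says less, since 87.8% of intermediate and 59.8% of endothelial cells held 1 of *Ins2*. Of the *Iapp*-rich cells 90.9% were also *Ins2*-rich, and of the *Ins2*-rich cells 18.4% were *Iapp*-rich. Of 133 cells rich in *Slpi*, 12 were among the 122 rich in *S100a9* (9.02 and 9.84%), where 1.71% of all intermediate cells were rich in *S100a9* and 1.87% in *Slpi*. Of the same 133 cells 15 (11.3%) were rich in *Dcpp1*, beside 15.1% of all. All 122 *S100a9*-rich cells and 97.7% of the *Slpi*-rich cells were rich in *S100a6*, as were 52.0% of all intermediate cells. Of the 37 cells rich in *Ccl8*, a chemokine, none was rich in *Clu* or *Iapp*, beside 24.0 and 10.6% of all intermediate cells.

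Clustering of the intermediate cells alone gave 8 sub-clusters, numbered by size. They are described by leading genes and given no cell type name. Their number depended on the settings, with 4 at resolution 0.25, 15 at resolution 1, 11 without cell cycle genes and 9 without the top doublet scores. Membership moved as well. Without cell cycle genes the best matching cluster held 50.6% (sub-cluster 6) to 97.6% (sub-cluster 8) of a sub-cluster, with 52.7% for sub-cluster 4. For sub-clusters 6, 8 and 4 it held 50.1, 96.3 and 55.1% without the top doublet scores, and 44.4, 100 and 52.2% at resolution 1. At resolution 0.25, most cells of sub-clusters 5, 6 and 8 (96.3, 80.8 and 74.4%) fell into 1 cluster of 1266 cells, those of 4 and 7 (80.9 and 95.9%) into 1 of 1285 cells and those of 1 and 3 (98.4 and 59.7%) into 1 of 2603 cells. Leading genes are those with the highest ratio over the other intermediate cells, and that choice makes them a description. No member of the endothelial, placenta or primitive endoderm lists was among the 10 leading genes of any sub-cluster. Genes outside these lists that are also known from such tissues were. Examples, not a complete list, are *Ttr*, a carrier protein of liver and visceral endoderm (565 against 74.5 CPM in sub-cluster 3), *Pcdh12*, an endothelial protocadherin (27.7 against 1.93 CPM in sub-cluster 7), and *Apob*, a lipoprotein of liver and yolk sac (49.98 against 4.86 CPM in sub-cluster 7). At full depth 42.1, 20.3 and 12.7% of the cells of the named sub-cluster held a UMI of them. These examples were picked out after their values were seen.

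Sub-cluster 1 held 1673 cells (23.5%, 22.5 to 24.5%) and was led by *Slpi*, *Serpinb2*, *S100a9*, *Tgm3*, *S100a8* and *Acpp*. *Slpi* was at 1369 CPM there and 45.9 CPM in the other intermediate cells. At full depth 36.3% of the cells of sub-cluster 1 and 13.8% of the others held a UMI of *Slpi*. At least 10 thinned UMIs of it were held by 115 of the 1673 cells (6.87%), so a minority carried the pooled level. *Serpinb2*, a protease inhibitor of keratinocytes and macrophages, was at 54.5 against 1.79 CPM, and *Tgm3*, a transglutaminase of hair and epidermis, at 25.4 against 1.47 CPM. *S100a6* reached 17400 CPM and *Clu* 8816 CPM. The cells had the highest sum of WNT ligands and targets, 1702 CPM, beside 980 to 1215 CPM in the others, and of the 5 markers, 1612 CPM.

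Sub-cluster 2 held 1488 cells (20.9%) and was led by *Svs4*, *Dnase1*, *Thrsp*, *Tff2*, *Ifi27l2a* and *Myl2*. *Svs4*, a secreted protein of the seminal vesicle, was at 230.2 CPM against 20.6 CPM, and *Tff2*, a peptide of the stomach mucosa, at 102 against 15.3 CPM. For each of these genes a minority of the cells carried the pooled level. At full depth a UMI of *Svs4* was found in 17.1% of the cells of the sub-cluster and of *Tff2* in 40.3%. The shares in the other intermediate cells were 7.22 and 12.2%. Sub-cluster 2 had the highest mitochondrial share, 4.28% of UMIs, and the highest sum of pluripotency genes, 231 CPM. *Sox2* was at 28.9 CPM there, 23.1 CPM in sub-cluster 4 and 0 to 8.23 CPM in the other 6.

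Sub-cluster 3 held 1298 cells (18.2%). *Dcpp1*, *Dcpp2* and *Dcpp3* led it with 8205, 6249 and 7678 CPM against 413, 366 and 515 CPM, followed by *Nppa*, the atrial natriuretic peptide, *Chga*, a protein of hormone granules, and *Scgb1c1*. A UMI of *Dcpp1* was present in 98.8% of its cells at full depth and in 49.6% of the other intermediate cells. *Ins2* had its highest level here, 22755 CPM, beside 16732 CPM in sub-cluster 1 and 205 CPM in sub-cluster 8.

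Sub-cluster 4 held 969 cells (13.6%) and was led by the division genes *Hist1h1b*, *Kif11*, *Mki67*, *Top2a*, *Hmmr* and *Cenpe*. *Mki67* was at 317 CPM against 17.5 CPM, and *Top2a* at 668 against 38.0 CPM. This *Top2a* level was above that of each other annotation, but those were pooled over dividing and other cells alike. The G2/M genes summed to 3349 CPM, beside 158 to 284 CPM in sub-clusters 1, 2, 3, 5, 6 and 7 and 1926 CPM in sub-cluster 8. Its cells had the highest share of neighbours from other annotations, 4.93%.

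Sub-cluster 5 held 845 cells (11.9%) and was led by *Tagln*, *Cnn1*, *Acta2*, *Serpinb9b*, *Ptgs2* and *Dkk2*. *Tagln*, a protein of the smooth muscle cytoskeleton, was at 711 CPM against 40.6 CPM, and *Acta2* at 235 against 16.9 CPM. At full depth 57.4% of the cells of sub-cluster 5 held a UMI of *Tagln* and 30.7% held 1 of *Acta2*. The contractile list summed to 3786 CPM, the highest of the 8, and *Wnt4* was at 888 CPM. *Wnt10a* was at 52.4 CPM, against 357 CPM in sub-cluster 1.

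Sub-cluster 6 held 401 cells (5.63%) and was led by *Grem1*, *Mmp10*, *Ccl8*, *Thbs2*, *Igfbp3* and *Ccl7*. *Grem1* was at 343 CPM against 3.61 CPM and *Ccl8* at 1359 against 28.3 CPM. A minority of the cells carried these pooled levels. At full depth 17.7% of the cells of sub-cluster 6 held a UMI of *Grem1* and 32.9% held 1 of *Ccl8*. The shares in the other intermediate cells were 2.23 and 13.9%. At least 10 thinned UMIs of *Ccl8* were held by 31 of the 401 cells. *Spp1* reached 3056 CPM and *Col1a1* 859 CPM. The bone and cartilage list (3508 CPM), the fibrillar matrix list (7251 CPM), the mesenchymal transcription factors (1665 CPM), the BMP targets (3337 CPM) and the HOX genes (443 CPM) all had their highest sums there. The level of *Ins2* was 671 CPM.

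Sub-cluster 7 held 369 cells (5.18%) with the lowest depth, a median of 12066 UMIs and 3222 genes. It was led by *Crybb3*, *Otos*, *Mmp9*, *Ccr7*, *Trpm3* and *Vcam1*. *Mmp9*, a gelatinase, was at 436 CPM against 30.7 CPM and *Vcam1*, an adhesion molecule, at 204 against 18.2 CPM. At full depth 48.2 and 52.6% of the cells of sub-cluster 7 held a UMI of these genes. Sub-cluster 8 held 82 cells (1.15%) and was led by *Prph*, *Ppp1r3a*, *Tnni3*, *Ramp1*, *Ednrb* and *Gata5*. *Prph*, an intermediate filament of neurons, was at 1013 CPM against 18.4 CPM in the other intermediate cells, and placenta-like cells held 289 CPM of it. *Tnni3*, cardiac troponin I, was at 177 against 3.70 CPM. At full depth 73.2% of the cells of sub-cluster 8 held a UMI of *Prph* and 48.8% held 1 of *Tnni3*. Its 5 markers summed to 217 CPM, with *Wnt10a* at 2.85 CPM and *Sema3c* at 7.82 CPM, the lowest of the 8.

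**Figure D4:**
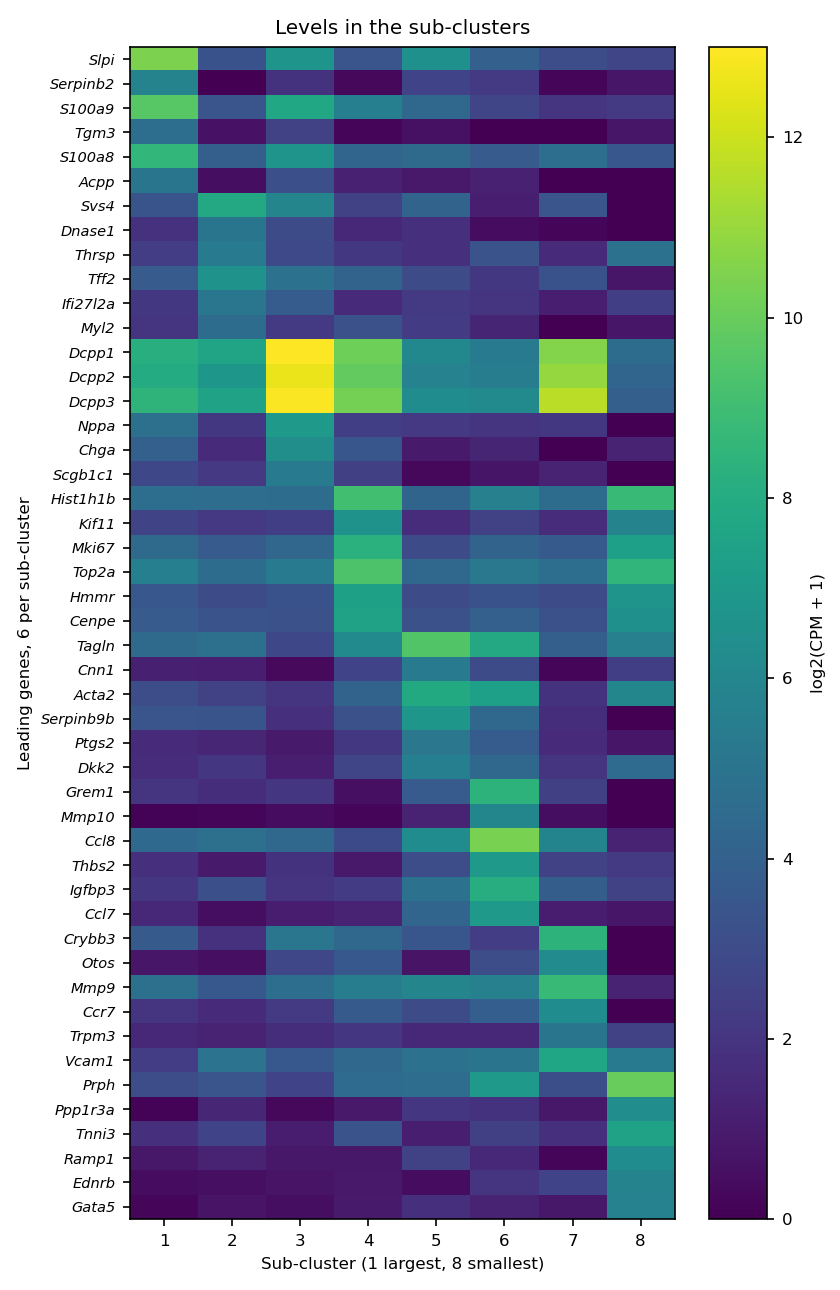
log2(CPM + 1) of the 6 leading genes of each of the 8 sub-clusters (rows) in each sub-cluster of the intermediate cells (columns). The *Dcpp* genes are highest in sub-cluster 3, and the division genes are high in sub-clusters 4 and 8.

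Sums over the gene lists were related to a limited degree across cells. Over the 7125 thinned cells, Spearman's rho was 0.48 between the S phase and G2/M sums, 0.38 between the contractile and the mesenchymal factor sums and 0.34 between the fibrillar matrix and contractile sums. The matrix sum and the G2/M sum had a rho of −0.22. These values describe cells of 1 library, which share its depth and free RNA. The 5 markers and the semaphorin list had a rho of 0.53 and share *Sema3c*.

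The comparison of the intermediate cells between the BMP4+ and BMP4− samples rests on 1 library each, so BMP4 and library cannot be told apart. Of 8294 genes, 2303 (27.8%) were at least 2-fold higher with BMP4 and 387 (4.67%) lower. The median log2 ratio of all genes was 0.52, and it was 0.52 in endothelial and 0.56 in ParE cells, where the same 2 libraries were compared. Centred on the median, 1012 genes were higher and 975 lower. Log2 ratios below are uncentred, and the median of the annotation has to be taken from each for the centred value.

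Some of the largest differences were large in all 3 annotations that could be compared. *Atp6v0c*, a proton pump subunit, was at 950 CPM with and 2.06 CPM without BMP4 in intermediate cells, a log2 ratio of 8.28, with 7.27 in endothelial and 9.16 in ParE cells. *mt-Co3*, a mitochondrial gene, was at 54.2 and 10389 CPM, a log2 ratio of −7.56, with −7.82 in endothelial and −7.78 in ParE cells. *Sssca1* (−5.92, with −5.59 and −6.05), *Ptp4a1* (−5.64, with −5.52 and −5.65), *Atp5g2* (−5.34, with −5.09 and −4.98), *Rbm42* (−4.63, with −4.90 and −4.88) and *Rps12-ps3* (−4.53, with −4.32 and −4.39) were alike in this. *AY036118* had 15698 UMIs (188.7 CPM) in the BMP4− intermediate cells and 0 in the BMP4+ cells of every annotation, and *Rpl27-ps3* had 6970 UMIs (83.8 CPM) and 0. Reads of the ps3 pseudogenes are shared with their parent genes. Whether the libraries were counted in the same way was not tested.

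For other genes the level with BMP4 was higher in intermediate than in endothelial and ParE cells. *Spink8*, a protease inhibitor, was at 387.5 CPM with and 0.228 CPM without BMP4 in intermediate cells (log2 ratio 8.31), at 32.9 and 0.594 CPM in endothelial and at 46.8 and 0 CPM in ParE cells. *Slpi* was at 371 and 0.866 CPM (7.64), at 10.1 and 0 CPM in endothelial and at 15.8 and 0.529 CPM in ParE cells. *Iapp* was at 1700 and 5.65 CPM (8.00), at 46.7 and 0.713 CPM in endothelial and at 177 and 0 CPM in ParE cells. In the BMP4− intermediate cells *Iapp* had 470 UMIs and *Slpi* 72, while *S100a9* had 3, *Krt71* 6 and *Prr9* 1. *S100a3* (7.16) and *Ldoc1* (6.60) were also among the 12 highest. *Srgn*, a proteoglycan of secretory granules, was at 263 and 1.72 CPM (6.60), while ParE cells held 256 and 236 CPM of it. *Dkk1* was at 237 and 2.27 CPM (6.19, with 4.58 and 1.86). Lower with BMP4 were the stem cell gene *Dppa5a* (4.48 and 261 CPM, −5.58) and the antisense gene *Hoxb5os* (0.428 and 37.4 CPM, −4.75, with −1.59 and −2.09). The sources used here do not state that counting used the strand, so *Hoxb5os* and reads of overlapping genes cannot be told apart.

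**Figure D5:**
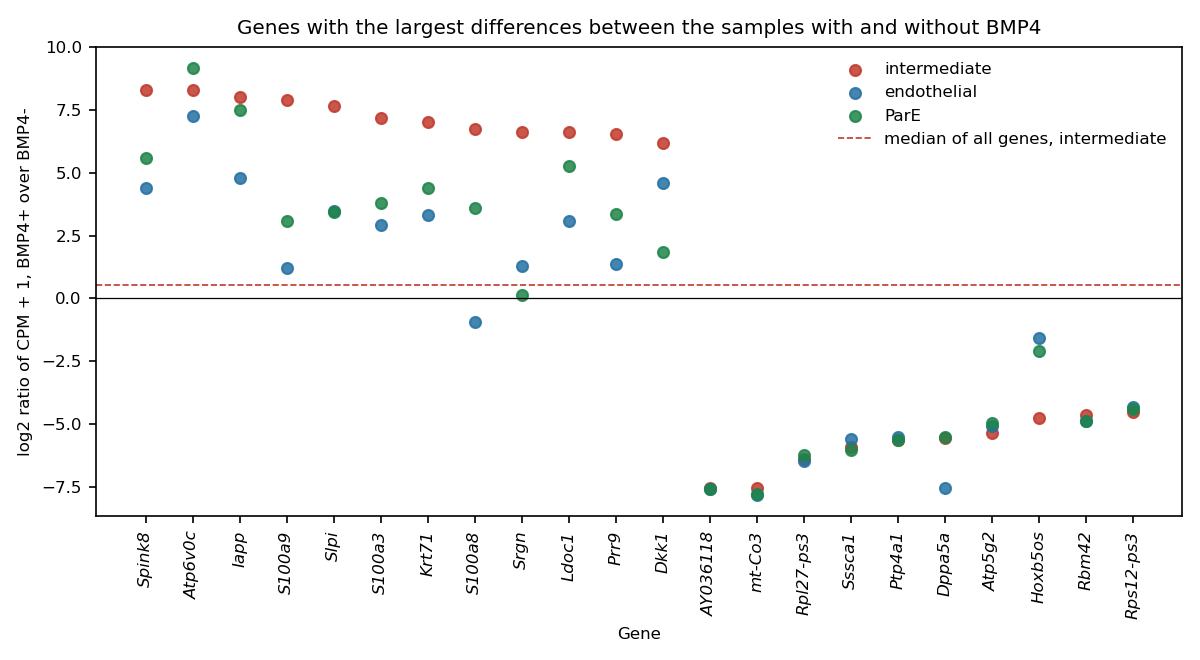
log2 ratio of CPM + 1 (BMP4+ over BMP4−) in intermediate, endothelial and ParE cells for the 12 genes highest and 10 of the 12 lowest with BMP4 in intermediate cells; the dashed line is the median of all genes in intermediate cells, 0.52. The lowest genes other than *Dppa5a* and *Hoxb5os* have like ratios in all 3, and *S100a8* lies below 0 in endothelial cells alone.

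All 5 markers were higher with BMP4 in the intermediate cells. *Sema3c* was at 312 CPM with and 41.3 CPM without BMP4 (log2 ratio 2.89), *Dlx3* at 131 and 19.0 CPM (2.72), *Wnt10a* at 200.4 and 30.4 CPM (2.68), *Pcolce* at 359.6 and 95.3 CPM (1.90) and *Lrp1* at 87.8 and 31.7 CPM (1.44). In endothelial cells the ratios of the same genes were 0.91, 0.72, 0.87, 0.34 and 0.18. In ParE cells the 4 markers that reached the minimum were all at least 2-fold higher with BMP4, with a median of 1.51 (0.95 centred), and *Lrp1* did not reach the minimum. There were 142 BMP4− ParE cells. With the shift of 0.52 taken off, *Lrp1* came to 0.92 and was under 2-fold. *Ins2* was at 10863 CPM with and 175 CPM without BMP4 (5.95), with 0.76 in endothelial and 5.99 in ParE cells.

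Of 9 BMP targets, 7 were higher with BMP4 in intermediate cells (median log2 ratio 2.02), where 27.8% of all genes were. The same list had 5 of 7 higher in endothelial (median 2.37) and 7 of 7 in ParE cells (2.32), where 24.2 and 25.9% of all genes were higher and 3.37 and 3.88% lower. *Id1* was at 629 CPM with and 202 CPM without BMP4, *Smad7* at 134 and 15.2 CPM and *Smad6* at 52.8 and 8.08 CPM. *Id2* was at 242 and 245 CPM, and *Id3* at 789 and 446 CPM did not reach 2-fold. Of 16 fibrillar matrix genes 12 were higher (median 2.04), with 7 of 9 in endothelial and 4 of 9 in ParE cells. Of 9 bone and cartilage genes 7 were higher (2.55), and of 9 keratinocyte and epithelium genes 6 (1.55). The mesenchymal transcription factors lay near the median of all genes, with 5 of 13 higher and 3 lower (0.44, −0.09 centred). Of 9 contractile genes 3 were higher and 0 lower (0.71, 0.19 centred). Of 14 placenta genes 4 reached the minimum, and all 4 were higher (3.05). The 14 genes summed to 239 CPM with and 52.0 CPM without BMP4. A gene could reach the minimum through the BMP4+ cells alone, which favours a call of higher. Also higher were 8 of 12 semaphorins and plexins (1.48), 6 of 8 AP-1 and immediate early genes (1.18) and 9 of 14 WNT genes (1.163, with 2 lower). *Wnt4* was at 459 and 18.3 CPM (4.57) and *Krt5* at 54.4 CPM and 2 UMIs.

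Several lists had medians below 0. The pluripotency list had the lowest, −3.04, with 4 of 6 genes lower and 1 higher with BMP4. Its median was −1.90 in endothelial cells (4 of 8 lower, 1 higher) and −3.08 in ParE cells (7 of 9 lower, 1 higher). In these annotations 3.37 and 3.88% of all genes were lower. The BMP4− library also held 1825 pluripotent cells (21.0%), with 9183 CPM of this list against 480 CPM in its intermediate cells. The hypoxia and glycolysis list had a median of −0.78, with 3 of 14 genes lower and 1 higher. Of 39 HOX genes 17 reached the minimum. Among them 11 were lower with BMP4 and none higher (median −1.29), where 4.67% of all genes were lower. *Hoxc10*, a posterior patterning gene, was at 14.6 and 52.2 CPM and *Hoxc8* at 11.6 and 29.0 CPM. The G2/M list had a median of −0.59 in intermediate cells, with 0 of 15 genes higher and 3 lower, while 7 of 16 were higher in endothelial and 9 of 16 in ParE cells, beside 24.2 and 25.9% of all genes. Centred on the median of all genes, the list's medians were −1.12 in intermediate, 0.29 in endothelial and 0.53 in ParE cells. *Cdkn1a* was at 954 and 377 CPM in intermediate cells (1.34), with −0.87 in endothelial and 0.98 in ParE cells. *Jdp2* was at 117.5 and 9.65 CPM (3.48). In bulk at day 7 the 2 levels of *Jdp2* were close, 259 FPKM with and 234 FPKM without BMP4. The source of this discrepancy was not tested.

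The bulk RNA-seq libraries measured the same genes in libraries that the annotation had not used. The 578 genes were chosen for a high level in the BMP4+ single-cell library. Bulk cultures with BMP4 were made the same way, so a higher level there is a description and no independent support. A bulk level does not tell fewer cells of a type from less RNA per cell. Of the 578 genes high in intermediate cells, 562 could be compared at day 7 with BMP4, and their median difference of log2(FPKM + 1) from day 0 was 0.62, beside 0.06 for all 14549 genes tested. On days 1, 3 and 5 with BMP4 the median difference was 0.14, 0.48 and 0.76. Without BMP4 it was 0.15, 0.16, −0.24 and −0.36 at days 1, 3, 5 and 7, beside 0.04, 0.17, 0.29 and 0.26 for all genes. At day 7 the median difference between the libraries with and without BMP4 was 0.91 for the 562 genes, beside −0.14 for all 15347 genes.

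The members of this group did not share 1 course. *Ins2* started at 42.6 FPKM at day 0. With BMP4 its level was 171, 736, 1457 and 1211 FPKM on days 1, 3, 5 and 7, and without BMP4 148, 270, 104 and 38.6 FPKM. *Slpi* was listed at 0 at days 0 and 1 and reached 0.407, 11.2 and 143 FPKM at days 3, 5 and 7 with BMP4, with 0.435 FPKM at day 7 without. *Clu* went from 29.4 FPKM at day 0 to 2555 FPKM at day 7 with BMP4, against 46.8 FPKM without. *Slpi* and *Clu* were highest in the last library of the course with BMP4.

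*Col1a1* and *Pcolce* were already high at day 0. *Col1a1* started at 524 FPKM. With BMP4 it stood at 67.8 FPKM on day 1 and 361 FPKM on day 7, and without BMP4 at 20.2 FPKM on day 7. *Pcolce* was at 304 FPKM at day 0 and between 240 and 276 FPKM at all 4 later days with BMP4, whereas without BMP4 it was 341, 143, 58.2 and 48.4 FPKM. *Wnt10a* was at 32.9 FPKM at day 0 and 114, 99.7, 132 and 122 FPKM with BMP4, against 212, 107, 41.7 and 23.9 FPKM without. *Sema3c* was at 228 FPKM at day 0 and 77.4 FPKM at day 7 with and 19.8 FPKM without BMP4. At days 5 and 7 these 3 genes were lower without than with BMP4, whereas at day 1 *Wnt10a* and *Pcolce* were higher without it.

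The difference in *Atp6v0c* was smaller in bulk than between the single-cell libraries and in the same direction, with 407 FPKM with and 211 FPKM without BMP4 at day 7. Genes that were far lower with BMP4 in the single-cell libraries had much smaller differences in bulk at day 7, with *Rbm42* at 38.98 FPKM with and 40.5 FPKM without BMP4, *Ptp4a1* at 17.3 and 22.5 FPKM, *Atp5g2* at 158 and 217 FPKM and *Sssca1* at 18.5 and 27.2 FPKM. *Slpi*, *Iapp* and *S100a9* differed in the same direction in bulk at day 7, with *Iapp* at 194 and 1.09 FPKM and *S100a9* at 68.3 FPKM and listed at 0. Not all of the 20 highest genes did so. *Ccl8* was listed at 0 at day 7 both with and without BMP4, and *Krt42* was at 1.13 and 0.985 FPKM. *Grem1* was at 5.13 FPKM with and 1.29 FPKM without BMP4, both under its 11.7 FPKM at day 0. *Id1* was at 240 FPKM with and 65.0 FPKM without BMP4, and *Dppa5a* at 19.2 and 527 FPKM.

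In MEFs, the cells from which reprogramming starts, an ATAC-seq peak lay within 1 kb of the start of 463 of the 578 high genes (80.1%, 76.6 to 83.3%). The share was 91.7% of all 9208 genes tested and 92.8% of the 402 low genes. The median level in intermediate cells was 30.4 CPM for the high genes and 26.5 CPM for all genes. Of the markers, *Dlx3*, *Pcolce*, *Lrp1* and *Sema3c* had a MEF peak and *Wnt10a* had none. *Slpi*, *Col1a1*, *Postn*, *Grem1* and *S100a4* had a peak, while *S100a9*, *Ibsp*, *Ins2*, *Iapp*, *Dcpp2*, *Dcpp3* and *Krt42* had none. The start is the outer end of the GENCODE gene, which for *Ins2* spans chr7:142678656-142743381, so the window can miss other starts. *Sparc* and *Fth1*, at 1157 and 923 FPKM at day 0, also had no peak in their windows, so the absence of a peak does not show a closed promoter. Opening in the intermediate cells was not measured.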

How the data were processed

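The authors aligned scRNA-seq reads to mm10 with GENCODE vM21 by STARsolo, filtered cells with Scanpy and annotated them. The deposited table holds raw UMI counts of 20695 genes, with the annotation in each cell's name. The remaining 10749 columns of the table were not used. Bulk FPKM values were deposited after Trim Galore 0.6.4, HISAT2 2.2.1 and StringTie 2.2.1. The deposited MEF peaks carry a MACS 1.4.2 score (lowest 50), and the read depth behind FPKM values and peaks is unknown. The MEF peaks are 1 list.

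Counts were summed per annotation and compared as log2 ratios of CPM with 1 CPM added, for genes of at least 10 CPM on either side, with 2-fold as the threshold. With 1 library per condition no test was made. Intervals are exact (Poisson or Clopper-Pearson, 95%) and cover counting error only. Cells were thinned to 4000 UMIs for shares of cells, and no cell was shallower. Sub-clusters were made in scanpy 1.11.5 (10000 per cell, 2000 variable genes, 30 principal components, 15 neighbours, Leiden resolution 0.5). Scrublet called 0 doublets with and 4 (0.0461%) without BMP4, so it did not work, and cells were left in. As an alternative the 6% with the highest scores were left out. The calculations were checked on simulated counts.

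The members, the 28 gene lists and the rules were chosen with earlier results of these data known. Named genes are up to 6 expressed genes per list, the 20 highest and 10 lowest against the other annotations, the 12 highest and 12 lowest with BMP4, the 15 most variable, the 6 leading genes per sub-cluster and the 10 most abundant. Of the 12 lowest, 2 are not reported here. The genes followed in bulk and for fibroblast peaks were picked from these after their values were seen. Alternatives changed the summing, filter, added value, centring, doublets, clustering and peak window.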

Additional observations from a re-analysis of the deposited data

Results flagged for a closer look

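*S100a8*, the partner of *S100a9* in calprotectin, differed between the samples in opposite directions in different annotations. In intermediate cells it was at 126.5 CPM with and 0.18 CPM (15 UMIs) without BMP4, and in ParE cells at 11.2 and 0 CPM. In endothelial cells it was at 5.27 CPM with and 11.2 CPM without BMP4 (log2 ratio −0.957), the latter from 94 UMIs. Each value rests on 1 library per condition, the 24 genes named for this comparison were looked at, and the difference was not tested.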

How the results depend on the processing

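No paired analysis was possible because each condition has 1 library. The gene counts past 2-fold stayed within 1.5 times of 2044 (endothelial), 2164 (placenta-like), 2265 (ParE) and 2690 (BMP4+ against BMP4− intermediate) with means over cells, thinned cells, 0.1 CPM added, centring or without the top doublet scores. Without a filter on low genes they were 3423, 3518 and 3725 for the first 3, and with at least 50 CPM 774, 876, 897 and 1124, as fewer genes were tested. In alternatives chosen after seeing the data, without cells over 5% mitochondrial UMIs, they were 1986, 2116, 2229 and 2795, and without genes at 0 in a whole library the last was 2684. The share of intermediate cells moved from 62.9% to 61.7% by Leiden clusters of the sample, 63.8% without the top doublet scores and 59.5% without cells over 5% mitochondrial UMIs. The largest sub-cluster moved from 23.5% of the cells to 36.5% at resolution 0.25, 11.6% at resolution 1, 17.9% without cell cycle genes and 20.5% without the top doublet scores. MEF peaks lay at 85.3% of high and 94.0% of all genes within 2 kb, and at 73.0 and 89.3% with a score of at least 2 times the lowest. The bulk median at day 7 kept its direction, with 0.56 to 0.71 over 3 alternatives. Of 549 ratios of named genes, 18 crossed the 2-fold threshold in either direction with centring, 17 with thinned cells, 11 without the top doublet scores, 4 with 0.1 CPM added and 3 with means over cells, and none past 2-fold changed sign. Depth was lower without BMP4 and its part in the differences was not tested.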

Other observations

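Further gene groups are given against the same background, 6.28% of all genes higher and 4.37% lower than in each other annotation. Of the 12 cholesterol synthesis genes, 4 were lower than in each other annotation and none higher, with median log2 ratios of −1.02 against endothelial, −0.89 against placenta-like and −1.25 against ParE cells. *Fdps*, an enzyme of the pathway, was at 155 CPM against 325, 291 and 331 CPM. Of 10 AP-1 and immediate early genes 2 were higher than in each other annotation and 1 lower, and *Fos* was at 92.2 CPM against 29.7, 29.0 and 32.5 CPM. Of 39 HOX genes 7 reached the minimum and 3 of these were higher. Their median log2 ratios were 2.02, 1.81 and 2.05 against endothelial, placenta-like and ParE cells. *Hoxc9* was at 51.1 CPM against 5.12, 3.87 and 6.53 CPM. Of 13 hypoxia and glycolysis genes 1 and of 11 unfolded protein and amino acid stress genes 1 was lower, shares near the background, and none of either was higher. *Asns*, an enzyme induced by amino acid stress, was at 29.0 CPM against 89.2, 74.3 and 124 CPM.

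Markers of cell types outside the 4 annotations were present at different levels. The 10 macrophage genes summed to 12.8 CPM in intermediate cells and 133 CPM in endothelial cells, and the 8 neural crest and glia genes to 58.0 and 134 CPM. The 8 adipocyte genes summed to 37.2 CPM in intermediate and 126 CPM in placenta-like cells. The 9 skeletal and cardiac muscle genes had their highest sum in intermediate cells, 79.4 CPM against 37.6, 51.1 and 24.1 CPM in endothelial, placenta-like and ParE cells, and reached 170 CPM in sub-cluster 8. Of the neural crest genes, *Ngfr*, a receptor of neural crest cells, was at 33.7 CPM against 7.87, 13.4 and 8.01 CPM.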
